A study of Zea mays with 24 samples.

Results

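The 200 genes described here had their 2 highest mean levels in the quiescent center and the root cap of the maize (Zea mays) root tip. Normalized values from 24 RNA sequencing libraries, 3 in each of 8 groups, were averaged per group for 39336 Zm00001d identifiers. A gene qualified when these 2 groups had the highest means in either order. The highest mean had to be under 2 times the second, and the second had to be at least 50 and at least 2 times the third. These conditions were met by 364 genes, which were ranked by the second mean plus 1 over the third mean plus 1, and ranks 1 to 200 were kept. The last members kept had ratios of 2.615, 2.615 and 2.614, and the first ones left out had ratios of 2.613, 2.611 and 2.594.

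The quiescent center is a small core of cells in the root meristem that seldom divide. It adjoins the stem cells that renew the columella of the cap, and WOX5-type homeobox genes are markers of it. The root cap covers the meristem, senses gravity in its columella, secretes mucilage and sheds cells into the soil. The deposited table gives identifiers without names, and 0 of the 200 members matched the supplied RefSeq table, so the members are described by identifier and no role is given for any of them. For the same reason, neither the quiescent center nor the root cap was checked here against marker genes.

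All plants were sampled 7 days after germination. Quiescent center cells were sorted as protoplasts, which are cells freed of their walls, by the fluorescence of a ZmWOX5::RFP reporter in a B73/Hi-II background. Root cap was dissected from wild-type B73 root tips. Endodermis was sorted by a ZmSCR::RFP reporter in the B73/Hi-II background. Epidermis, cortex and stele were sorted from wild-type B73 protoplasts after 15 min with the dyes syto 40 and syto 81. Protoplasts of the whole meristem and intact root tips, both wild-type B73 and both without cap, completed the set. Line and sorting method therefore cannot be told apart from tissue in the quiescent center and the endodermis, and cell isolation cannot be told apart from tissue in the root cap. Nothing in the labels ties replicates to separate plants or separate sorts, so p-values measure the spread between these libraries, which may be technical. Recovered reads ranged from 24991925 to 32501670 in the quiescent center, from 23121418 to 30028877 in the root cap and from 21978670 to 50289026 over all libraries. By counting error alone, a gene listed at 0 could hold up to 3 reads, worth 1.81 to 4.46 normalized units.

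In their 2 high groups the members were of similar level by construction, and they made up a small share of each library. The group mean of a member had a median of 284 normalized units in the quiescent center and 260.3 in the root cap, against 19.4 in the endodermis, 37.4 in the epidermis, 24.3 in the cortex and 27.3 in the stele. The median was 25.3 in protoplasts without cap and 24.6 in root tips without cap. Summed over the 200 genes, the signal was 0.485% ± 0.224 of a quiescent center library and 0.357% ± 0.040 of a root cap library (SD, n = 3 each). In the 18 other libraries it lay between 0.0278% and 0.0539%. The members were chosen by these same group means, so the gap between the 2 high groups and the rest is a description and was not tested.

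**Figure D1:**
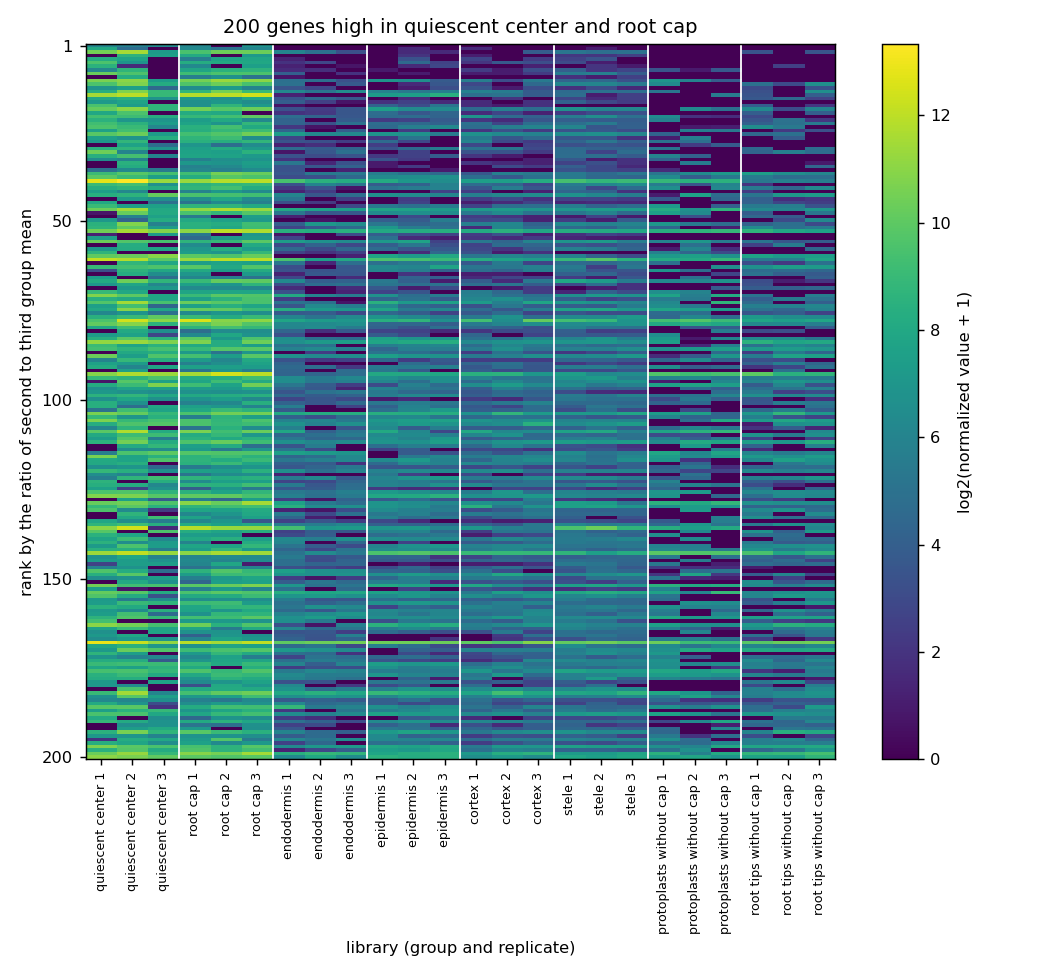
Level of each of the 200 genes, as log2(normalized value + 1), in each of 24 libraries, with rows ordered by the ratio of the second to the third group mean. The left 6 columns are the brightest by construction, and dark cells inside the quiescent center columns mark members at or near 0 in a single library, 39 of them at 0 in replicate 3.

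The ratio of the rule fell quickly along the ranks. It was 59.2 at rank 1, 16.8 at rank 10, 5.35 at rank 50 and 3.53 at rank 100. A ratio of at least 10 was reached by 19 members, and at least 3 by 143. The first 50 differed from the others mainly in the third mean, whose median was 26.0 there and 64.3, 77.0 and 74.7 in the next 3 blocks of 50. In the same 4 blocks the median quiescent center mean was 293, 286, 288 and 258 and the median root cap mean was 255, 276, 254 and 282. The second mean ranged from 50.7 to 3622 with a median of 235, and it was at least 1000 in 20 members.

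Both high groups led in comparable numbers, with 112 members highest in the quiescent center and 88 highest in the root cap. The quiescent center mean over the root cap mean ranged from 0.507 to 1.97, limits set by the rule, with a median of 1.04. In 87 members the 2 means were within 1.25-fold of each other. Applied with the same thresholds to each of the 28 pairs of groups, the rule found most genes for quiescent center with root cap, 364 of 1343 in all. Endodermis with stele followed with 246 genes, epidermis with cortex with 157, root cap with epidermis with 105 and quiescent center with root tips without cap with 85. Without the other conditions, the 2 highest means lay in these pairs, in the same order, for 3726, 2755, 1844, 1608 and 2303 genes. These counts were not tested.

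**Figure D2:**
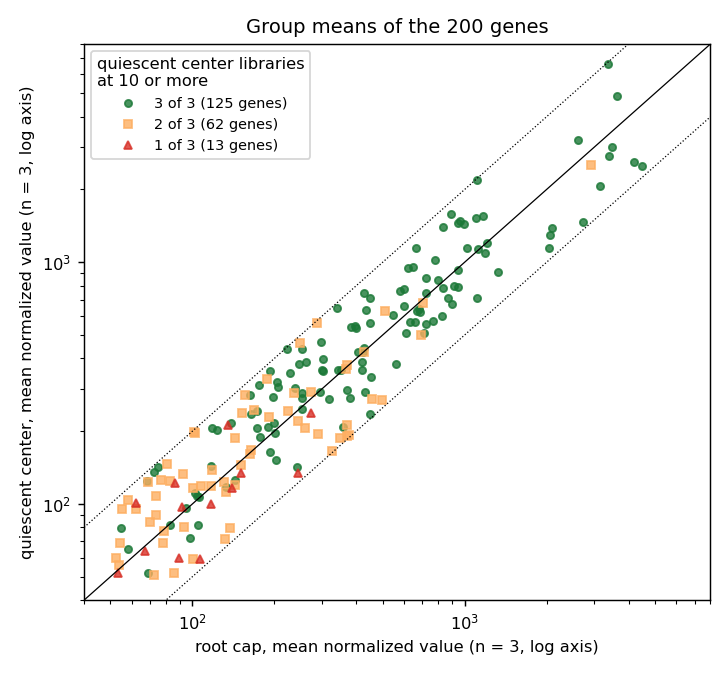
Mean normalized value of each member in the quiescent center (vertical) and the root cap (horizontal), both on log axes, with the line of equality and dotted lines at 2-fold. The 13 genes carried by 1 quiescent center library and the 62 carried by 2 lie mostly at low means, while all 3 libraries were at 10 or more for 125 genes.

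Replicates varied less in the root cap level of the members than in their quiescent center level. At a value of at least 10, 185 members were found in all 3 root cap libraries and the other 15 in 2 of them. In the quiescent center 125 members were found in all 3 libraries, 62 in 2 and 13 in 1. The median SD of a member on the log2(value + 1) scale was 1.57 in the quiescent center and 0.58 in the root cap. Over all genes with a group mean of at least 50, this median SD was 0.82 in the quiescent center and 0.50 in the root cap.

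Zeros in single libraries showed the same contrast, and in the quiescent center they were more frequent in the members than in all genes of like mean, a difference not tested. In the quiescent center, 46 of 72 members with a mean from 50 to 200 were at 0 in at least 1 library (63.9%), against 42.4% of all 4869 genes in that range. With means from 200 to 1000, 17 of 101 members had such a 0 (16.8%), against 6.45% of 8295 genes. In the root cap the shares were 16.0% of 81 members and 12.8% of 4837 genes in the lower range, and 0% of 97 members and 0.489% of 8596 genes in the upper range. A gene enters the list by its mean, so a high value in 1 library can bring it in, and whether this accounts for the zeros was not tested.

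Among quiescent center libraries, replicate 2 carried the members most strongly. Of the 200 genes, 103 were highest in replicate 2, 68 in replicate 1 and 29 in replicate 3. The median over members was 294 in replicate 1, 347 in replicate 2 and 164 in replicate 3, and 23, 11 and 39 members were at 0. Root cap medians lay closer together, at 226, 271 and 280.1, with 0, 10 and 3 members at 0. Across the 200 genes, the Spearman correlation of quiescent center replicate 2 was 0.758 to 0.803 with the root cap libraries, and 0.491 and 0.468 with the other quiescent center replicates. Replicates 1 and 3 of the quiescent center correlated at 0.399 with each other, at 0.656 to 0.692 and at 0.454 to 0.643 with the root cap libraries. The root cap libraries correlated with each other at 0.724 to 0.833. Genes are not independent replicates and the same values chose the list, so these correlations describe the libraries.

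**Figure D3:**
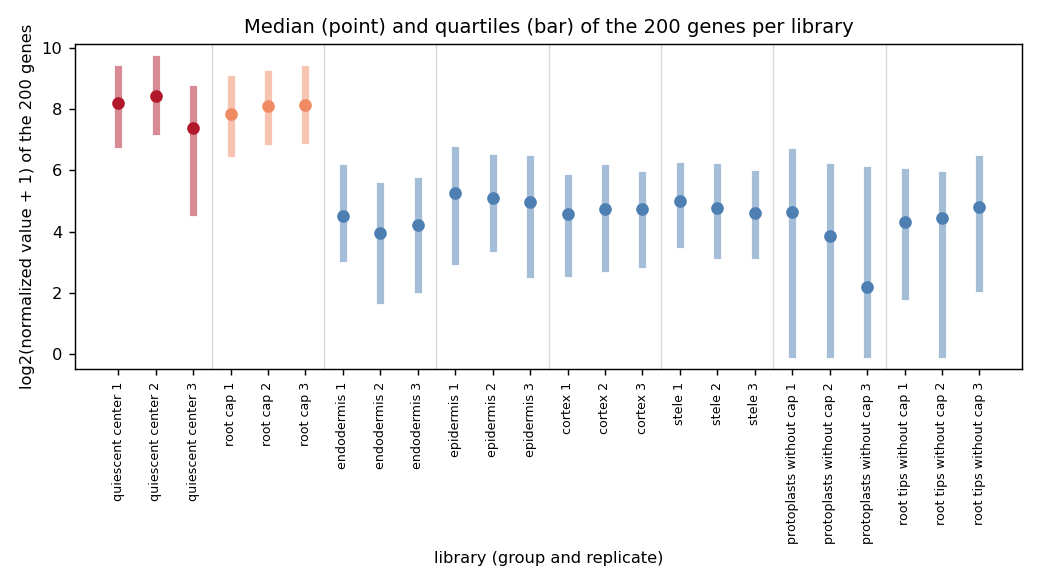
Median (point) and quartiles (bar) of the 200 genes in each library, on the log2(normalized value + 1) scale, with the quiescent center and root cap libraries at the left. Quiescent center replicate 3 has the lowest median of the 6 left libraries, at 164 normalized units, and the quartiles reach 0 in all 3 libraries of protoplasts without cap.

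A strict reading left fewer genes. In 76 members every quiescent center and root cap library lay above all 18 other libraries. This pattern was found in 1.15% of the 25555 genes with a value of at least 10 in at least 3 libraries, and the contrast is the one that chose the members. The 3 root cap libraries all lay above the 18 others in 147 of the 200 members, a pattern found in 1673 of the 25555 genes (6.55%). The 3 quiescent center libraries did so in 87 of the 200 members and in 1860 of the 25555 genes (7.28%). Overlap came from the quiescent center alone in 71 members, from the root cap alone in 11 and from both in 42. When 1 of the 6 libraries was left out at a time, 73 members met the conditions in all 6 settings. The setting without quiescent center replicate 2 kept 129 members, against 162 without replicate 1 and 165 without replicate 3. Without root cap replicate 1, 2 or 3 the conditions were met by 177, 171 and 164 members.

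Among the first 10 genes by ratio, 1 had all 6 libraries above the 18 others and 2 were at 10 or more in all 3 quiescent center libraries. Beyond those 10 the counts were not lower than in the whole list, with all 6 libraries above the others in 9 of the first 20 and 23 of the first 50. Of the 73 members that met the conditions in every leave-one-out setting, 2 were among the first 10 and 18 among the first 50. In those 73 genes the group means had a median of 441 in the quiescent center and 423 in the root cap, against 75.7 in the third group.

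Zm00001d014598, at rank 1, was at 65.0, 55.4 and 75.4 in the quiescent center and at 65.1, 0 and 109 in the root cap. It was at 0 in all 18 other libraries, the 1 member with that pattern, but also in root cap replicate 2, so a single root cap library overlapped with the other groups. Zm00001d047567, at rank 2, was at 260.1, 26.7 and 0 in the quiescent center and at 79.3, 37.2 and 69.3 in the root cap, and at most 2.13 in any other library. Its root cap values all lay above the other groups, whereas quiescent center replicate 3 did not.

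The members with the highest second mean were expressed in every group. Zm00001d028896, at rank 168, was at 7556, 4801 and 2228 in the quiescent center and at 3796, 2882 and 4189.7 in the root cap. In the 18 other libraries it lay between 532 and 1884, so no library of the 2 high groups overlapped with them. Zm00001d000316, at rank 39, was at 7039.7, 10314 and 2500.0 in the quiescent center and at 2491, 3627 and 4010.0 in the root cap. The stele was next, with 555 ± 110.4, and root tips without cap were lowest, with 48.1 ± 7.65 (SD, n = 3 each). All 6 high libraries of this gene lay above the 18 others.

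**Figure D4:**
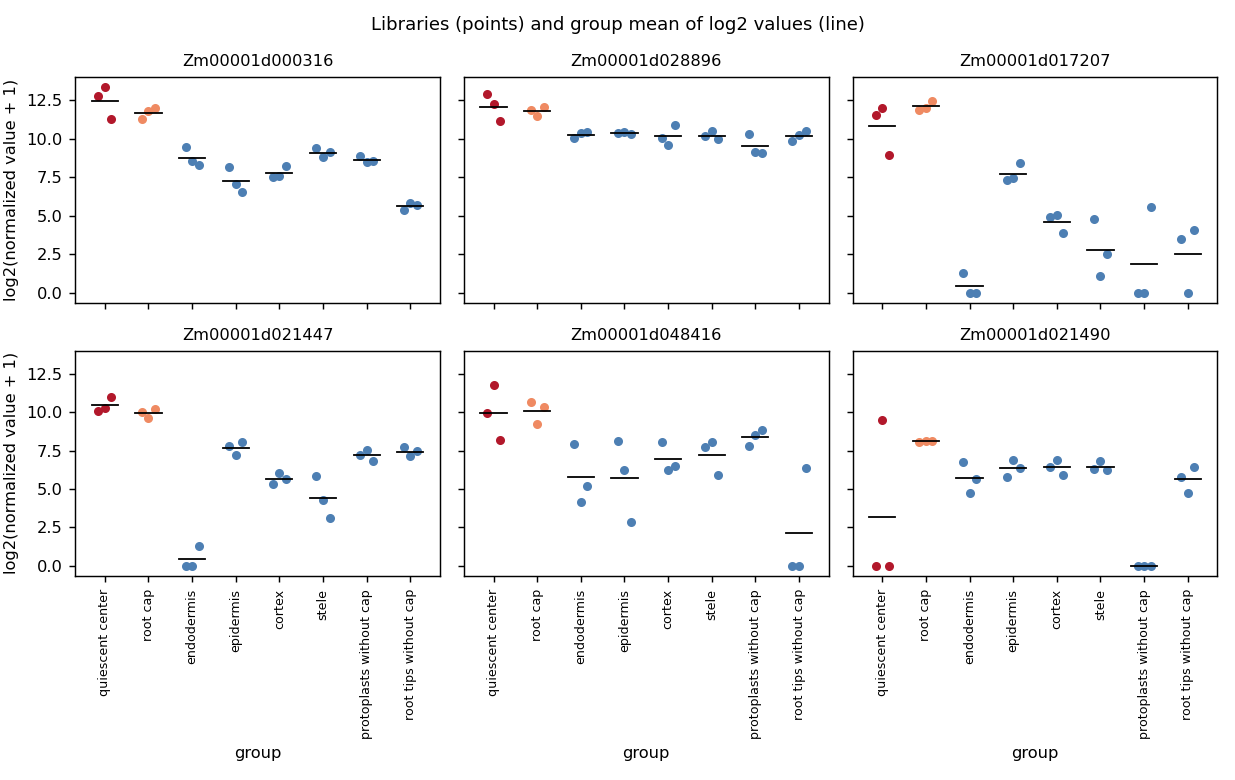
Values of 6 named members as log2(normalized value + 1), with points for the 3 libraries of each of 8 groups and a line at the mean of the log2 values. Zm00001d028896 is the most even of them outside the 2 high groups, and Zm00001d021490 shows 1 quiescent center library at 713 beside 2 at 0.

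Below the 2 high groups, no single tissue followed. The third highest mean was in the epidermis for 60 members, in root tips without cap for 40, in protoplasts without cap for 37, in the stele for 32, in the endodermis for 20 and in the cortex for 10. By the median over members in each library, the epidermis stood highest at 30.1 to 37.2, overlapping with the stele at 23.3 to 31.0. Cortex libraries lay at 22.9 to 25.7, root tips at 18.9 to 27.1, endodermis at 14.5 to 21.6 and protoplasts at 3.57 to 24.2. All neighbours in this order overlapped, while every epidermis library lay above every library of the cortex, the endodermis, the protoplasts and the root tips. Within a member, the 6 lower means spread widely, since the highest over the lowest (each plus 1) had a median of 8.44 and exceeded 10 in 90 members. All 6 group means were under 10 in 15 members.

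The rule did not use the order of the 6 lower groups, so 3 comparisons among them were tested with limma on log2(value + 1) over all 25555 genes. Each gene had 1 spread, pooled over all 24 libraries. Quiescent center and root cap values, which chose the members, therefore entered every SE and p. In the quiescent center the median SD was 1.57 for members and 0.82 for all genes with a mean of at least 50. Counts from fits without these 2 groups are given for each comparison, whereas the values of named genes come from fits that include them. A gene was called at a Benjamini-Hochberg adjusted p below 0.05 and a log2 change of at least 1 in size. All 200 members passed the filter, but 182 of them would have passed it on the 18 libraries without quiescent center and root cap.

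Protoplasts without cap were compared with root tips without cap, which asks how cell isolation and the mix of cells recovered relate to these genes. There were 21 members higher and 21 lower in protoplasts, 21.0% of the list, against 17.9% of all genes called (9.27% higher and 8.58% lower), so the members' share was near that of all genes. DESeq2 on recovered reads called 34.5% of the members and 20.5% of all genes, so the distance between them depends on the test. Without quiescent center and root cap in fit and filter, 26 of 182 members were higher and 30 lower, 30.8% against 26.3% of all genes. The median log2 change of the members was −0.65, against −0.15 over all genes. With genes at 0 throughout a group set to the floor of 3 reads per library, the members' median was −0.24, and it was 0 with edgeR or DESeq2 on recovered reads. At 0 in all 3 libraries were 38 members in protoplasts and 25 in root tips, 10 of them in both. Of 76 members with a protoplast mean from 10 to 50, 68.4% had at least 1 library at 0, against 60.6% of all 3885 genes in that range. Fewer cells of a type and less RNA per cell cannot be told apart in such bulk samples.

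Zm00001d048416 was at 221, 371 and 445 in protoplasts, against 0, 0 and 80.7 in root tips. The groups did not overlap, and the gene rose by 6.26 on the log2 scale (SE 1.48, limma adjusted p = 0.0055). With edgeR on recovered reads the change was 3.60 and the adjusted p was 0.111. Zm00001d038843 was at 329.5, 184 and 282 in protoplasts, against 0, 0 and 62.7 in root tips, without overlap, a rise of 6.02 (SE 1.87, limma adjusted p = 0.029). For this gene the change was 3.57 with edgeR, 3.66 with DESeq2 and 3.79 with pseudocount 10. Its call was lost with edgeR, with pseudocount 10 and when any of the 3 protoplast libraries or root tips replicate 1 or 2 was left out, with adjusted p between 0.0545 and 0.131. The level of this gene in the quiescent center was 2088, 5452 and 1.96, so replicate 3 lay below the protoplast libraries.

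Zm00001d003378 was at 21.1, 0 and 0 in protoplasts, against 63.6, 342 and 274 in root tips. It fell by 6.02 on the log2 scale (SE 0.97, limma adjusted p = 2.28e-04), without overlap between the groups. The change was −3.74 with pseudocount 10, −5.05 with edgeR and −5.01 with DESeq2. Zm00001d021490 was at 0 in all 3 protoplast libraries, against 54.6, 26.2 and 84.2 in root tips. Against the floor of 3 reads per library it was at least 15.5-fold lower in protoplasts (limma adjusted p = 0.015). That p was 0.0825 with pseudocount 10 and 0.0519 without root tips replicate 3. In the quiescent center this gene was at 0, 713 and 0, against 265, 279.5 and 276 in the root cap, so its place in the list rests on quiescent center replicate 2.

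Endodermis, the other reporter-sorted tissue of the B73/Hi-II background, was compared with the mean of the 3 dye-sorted tissues. Of the members, 3 were higher (1.5%) and 15 lower (7.5%) in the endodermis, 9.0% of the list. Of all genes, 14.6% were called (6.74% higher and 7.87% lower). The members' lower share was near that of all genes, and their higher share was smaller. Members had a median log2 change of −0.47 (quartiles −1.28 and 0.34), and all genes −0.03 (quartiles −0.71 and 0.58). Without endodermis replicate 1, 2 or 3 there were 11, 9 and 11 calls, which were lower counts than the 18 with all libraries. These were 5.5%, 4.5% and 5.5% of the members. The share of all genes called was lower as well, at 12.7%, 8.95% and 9.51%. A fit of the compared groups alone gave 40 calls, of which 34 were lower, and there the members' share of 23.1% was near the 23.7% of all genes. Without quiescent center and root cap in fit and filter, 6 of 182 members were higher and 20 lower, 14.3% against 20.3% of all genes.

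Zm00001d021447 was at 0, 0 and 1.43 in the endodermis, against 7.47 to 267 (median 57.7, n = 9) in the dye-sorted tissues. These groups did not overlap, and the gene fell past the threshold (limma adjusted p = 1.59e-07). It was at 1089, 1235 and 1977 in the quiescent center and at 1015, 770.2 and 1189 in the root cap, values that chose it. Zm00001d017207 was at 1.42, 0 and 0 in the endodermis, against 1.07 to 343 (median 28.7, n = 9) in the dye-sorted tissues, with 1 stele library inside the endodermis range. It fell past the threshold as well (limma adjusted p = 0.0050). Each of these 2 genes had 2 reads in the endodermis, under the floor, so no fitted fold is given. The summed reads per unit of depth in the dye-sorted tissues were 219 times and 197 times as high. The 95% exact binomial intervals for counting error ran from 60.5 to 1812 and from 54.4 to 1631. The epidermis was the highest of the dye-sorted tissues for both genes. Zm00001d021447 had means of 211 in the epidermis, 50.7 in the cortex and 27.8 in the stele. For Zm00001d017207 these means were 226, 24.8 and 10.7.

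In each of the named members higher in the endodermis, 1 quiescent center library lay below every endodermis library. Zm00001d016411 was at 187, 152 and 117 in the endodermis, against 0 to 88.3 (median 23.4, n = 9) in the dye-sorted tissues, a rise of 3.06 (SE 0.81, limma adjusted p = 0.012). The groups did not overlap, but the adjusted p was 0.0545 without endodermis replicate 1 and 0.0563 without replicate 2. It was at 50.2, 740.1 and 1004 in the quiescent center, with replicate 1 below the endodermis. Zm00001d005537 was at 186, 103 and 95.2 in the endodermis, against 0 to 29.9 (median 18.2, n = 9), a rise of 3.31 (SE 1.09, limma adjusted p = 0.042). That call did not hold without endodermis replicate 1, 2 or 3, epidermis replicate 1, 2 or 3, cortex replicate 3 or stele replicate 1 or 3, where the adjusted p lay between 0.0533 and 0.148. Its quiescent center values were 805, 307 and 26.4, with replicate 3 below the endodermis.

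Within the dye-sorted tissues, all of 1 line and 1 sorting method, the epidermis was compared with the mean of cortex and stele. There were 4 members higher (2%) and 3 lower (1.5%) in the epidermis, 3.5% of the list. Of all genes, 8.94% were called (3.16% higher and 5.78% lower). The median log2 change was 0.36 for the members (quartiles −0.67 and 0.98) and −0.05 for all genes (quartiles −0.73 and 0.54). Without epidermis replicate 1 or 3 there were 4 and 3 calls, against 7 with all libraries. These were 2% and 1.5% of the members, and the share of all genes called was lower as well, at 3.73% and 4.75%. A fit of the compared groups alone called 36 of 165 members tested, and there the members' share of 21.8% was near the 20.1% of all genes. With quiescent center and root cap left out of fit and filter, 6 of 182 members were higher and 11 lower, 9.34% against 15.2% of all genes.

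Zm00001d017207, lower in the endodermis, was at 159, 175 and 343 in the epidermis, against 1.07 to 32.0 in the cortex and stele libraries (median 19.9, n = 6). The groups did not overlap, and the gene rose by 4.05 on the log2 scale (SE 1.15, limma adjusted p = 0.029). The call did not hold with any 1 of the 3 epidermis libraries left out, or without cortex replicate 3 or stele replicate 2 or 3, where the adjusted p lay between 0.0511 and 0.132. It was among the strongest members, at 3009.5, 4011 and 489 in the quiescent center and at 3732, 4150.0 and 5577 in the root cap.

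Zm00001d046913 was at 18.4, 8.09 and 35.7 in the epidermis, against 2.13, 1.00 and 2.70 in the cortex and 0 in all 3 stele libraries. It rose past the threshold (limma adjusted p = 0.0060), with an adjusted p of 0.0550 without epidermis replicate 3. Its cortex and stele values all lay under the floor of 3 reads, so no fold is given. Zm00001d053067 was at 0, 18.2 and 14.3 in the epidermis, against 48.4 to 85.5 in the cortex and stele libraries (median 57.3, n = 6), without overlap. It fell by 3.21 (SE 0.75, limma adjusted p = 0.0092), and by 1.85 without epidermis replicate 1, where the adjusted p was 0.103. With edgeR on recovered reads its adjusted p was 0.0539. Zm00001d051944 was at 0.918, 2.02 and 0 in the epidermis, against 2.00 to 38.2 in the cortex and stele libraries (median 19.8, n = 6). It fell past the threshold (limma adjusted p = 0.016), with an adjusted p of 0.0705 without epidermis replicate 1, 0.112 without replicate 3 and 0.0537 with edgeR. Its 3 epidermis reads, under the floor in each library, put the summed level in cortex and stele 20.5 times as high, with a 95% exact binomial interval from 6.85 to 101 for counting error. High values came from the stele, at 38.2, 28.9 and 29.9, while the cortex, at 4.26, 2.00 and 10.8, overlapped with the epidermis.

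**Figure D5:**
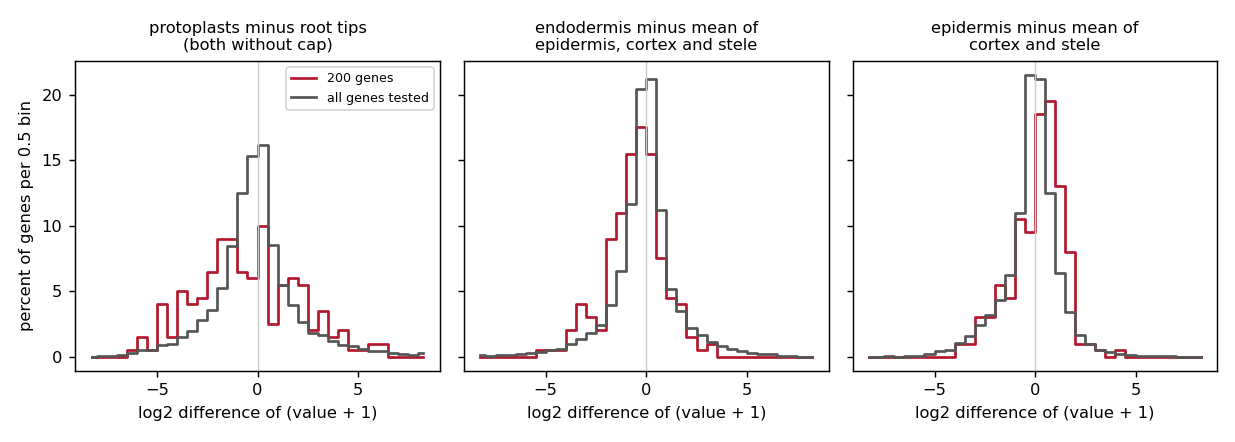
Percent of genes in each 0.5-wide bin of log2 difference for the 200 members and for all 25555 genes tested, in the 3 comparisons among the 6 lower groups. Medians of the members and of all genes are −0.65 and −0.15 for protoplasts, −0.47 and −0.03 for endodermis and 0.36 and −0.05 for epidermis.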

How the data were processed

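Trimmomatic, kallisto 0.43 and DESeq2 are named in the submitters' processing notes, while build and annotation are not given in the sources used here. Values were deposited as a normalized signal per gene, and their steps are those of gene counts divided by 1 factor per library. Levels of near-identical genes are uncertain, since their reads can be split. The table's 8 columns of group averages were not used. In each library, dividing by what 1 read is worth gave whole reads for 100% of values (tolerance 0.01), although in 4 libraries this step lay within 0.0107 of 1, where the check is weak. No identifier matched the RefSeq table (0 of 39510).

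Comparisons used limma 3.58.1 in R 4.3.3 with a trended prior and pseudocount 1. The model had a mean per group and 1 spread per gene over all 24 libraries. The pseudocount makes fold changes understate low genes. Where a group mixed zeros with higher values, changes could instead exceed those on recovered reads. For Zm00001d048416 the log2 change was 6.26 with limma, 3.60 with edgeR and 3.68 with DESeq2. Scripts were tested on simulated counts in which only genes with a mean of at least 50 were changed. Calls on lower genes, as many members are in the 6 lower groups, were not covered by it. edgeR 4.0.16 and DESeq2 1.42.0 on recovered reads were alternatives, beside other scalings, filters and left-out libraries. Replicate numbers follow the sample titles, although the descriptions of replicate 3 of epidermis, cortex and stele give the number 2, so results that name a replicate of these tissues rest on the titles. Named genes were the first 2 by ratio, the first 2 by second mean and up to 2 rising and 2 falling by size among called members of each comparison. The members and lists were chosen with earlier results of these data known.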

Additional observations from a re-analysis of the deposited data

How the results depend on the processing

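The list depended on single libraries, and 200 members became 76 when all 6 high libraries had to exceed the 18 others, and 129 to 177 when 1 of them was left out. The 3 comparisons had 42 (protoplasts), 18 (endodermis) and 7 (epidermis) members called. These were 21.0%, 9.0% and 3.5% of the members, against 17.9%, 14.6% and 8.94% of all genes. DESeq2 on recovered reads gave 69, 30 and 20, and edgeR gave splits of 18 higher and 18 lower, 4 and 8, and 6 and 1. With DESeq2 these were 34.5%, 15% and 10% of the members, against 20.5%, 16.8% and 12.6% of all genes. With edgeR they were 18%, 6% and 3.5%, against 14.0%, 13.4% and 7.23%. Weights per group gave 50, 38 and 28. Fits of the compared groups alone, which test fewer members, gave 31 of 134, 40 of 173 and 36 of 165. The weighted counts were 25%, 19% and 14% of the members, against 20.4%, 21.8% and 19.1% of all genes. For the compared groups alone the shares were 23.1%, 23.1% and 21.8%, against 21.3%, 23.7% and 20.1%. Without quiescent center and root cap in fit and filter, added after the data were seen, the epidermis comparison gave 17. That was 9.34% of the members tested, against 15.2% of all genes. With 1 library left out the counts ranged from 28 to 38, from 9 to 19 and from 3 to 9. Shares of all genes in these settings ranged from 11.5% to 16.0%, from 8.95% to 15.0% and from 3.73% to 9.52%. The cause of these differences between settings was not tested.

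The members' median log2 change of −0.65 in protoplasts was −0.19 with pseudocount 10, 0 with edgeR and with DESeq2, −0.98 with the compared groups alone and −0.92 without quiescent center and root cap. With 1 library left out it ranged from −0.62 to −0.31, and the other medians from −0.75 to −0.27 (endodermis) and from 0.23 to 0.43 (epidermis). Of 180 recomputed values of named members, 147 kept direction and threshold, 33 were no longer past it and 0 changed direction. Not among the 180 were fits without quiescent center and root cap, of the compared groups alone, with weights per group or without a filter. Stability of the named members in those settings was not assessed. For libraries that share a replicate number, deviations from group means correlated at −0.0025 on average (84 pairs, 14 above 0.1). Only 7 of 24 libraries had their best match under their own number, so the numbers were not taken as pairs. A replicate block gave 42, 19 and 7 calls, which were 21%, 9.5% and 3.5% of the members. The shares of all genes were 17.5%, 14.3% and 8.35%.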
